A study of Mus musculus with 10 samples.

Results

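The Notch pathway and Fringe genes described here are the receptors Notch1, Notch2 and Notch3, the ligands Jag1 and Dll1, the sugar transferases Mfng, Lfng and Rfng, and the target genes Hes1 and Heyl. They were picked by name from the mouse gene identifiers of a count table, because Mfng stood near zero in control cells and higher under each treatment. Of the 10 genes, 9 have a row among the 18103 genes of the table, and Heyl has none, so it is not analysed here. RNA was sequenced from 10 libraries of 2 mouse breast cancer lines, with 2 libraries in each of 5 groups. Py2T long term cells (Py2T-LT), derived from a mammary tumour line, formed 3 groups: controls, cells given a MEK inhibitor, and cells given that inhibitor together with BMP2. MTΔECad cells, mesenchymal breast cancer cells named for the loss of E-cadherin, were sampled as controls or with rosiglitazone, an agonist of the adipocyte receptor PPARγ. All libraries are taken as day 7, although the titles of the MTΔECad controls name no day. The protocol in the labels gives control cells DMSO, and its usual doses are 40 µM for PD98059 (the MEK inhibitor), 200 ng/ml for BMP2 and 2 µM for rosiglitazone. It also adds rosiglitazone to BMP2-treated cancer cells from the fourth day on, which the labels of the Py2T-LT samples neither name nor deny. Effects given here for the addition of BMP2 may therefore include those of rosiglitazone, and their parts cannot be told apart. No group with BMP2 alone is used here, and the labels do not say whether either line is a single clone.

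Notch receptors sit in the cell membrane and are activated by ligands of the Jagged and Delta-like families on a neighbouring cell. Binding lets proteases cut the receptor, and its inner part travels to the nucleus, joins the DNA-binding protein RBPJ and switches on repressor genes of the Hes and Hey families. Fringe enzymes lengthen O-fucose sugars on the receptor in the Golgi, which changes how well it responds to Delta-like and to Jagged ligands. In cultured preadipocytes, Notch signalling and Hes1 are known as regulators of fat cell differentiation.

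Library totals ran from 14659987 to 17249199 counts, and levels are given as CPM (library-scaled counts) after TMM scaling, a correction for differences in RNA composition. In these units 3 counts, taken as the floor of a library, were worth 0.164 to 0.209 CPM. Cdh1, the E-cadherin gene, had 36 and 31.7 CPM in the Py2T-LT controls against 2.57 and 2.25 CPM in the MTΔECad controls, low but not at the floor, and gene counts do not show whether these reads came from the deleted part. The summed level of 8 epithelial markers was 681 and 633 CPM in Py2T-LT controls, 656 and 573 with the MEK inhibitor, 218 and 234 with BMP2 and the inhibitor, 273 and 285 in MTΔECad controls and 394 and 360 with rosiglitazone. It was thus lowest in the combination, and Cdh1 stood there at 18.3 and 15 CPM, with the inhibitor alone at 12.7 and 11 CPM and with rosiglitazone at 3.02 and 4.61 CPM. Krt8 and Krt18 made up most of this sum in each group, with means of 219 and 389 CPM in Py2T-LT controls and 43 and 157 CPM in the combination. Cldn4 went from 9.8 CPM in Py2T-LT controls to 2.94 with the inhibitor and 7.45 in the combination, and Cldn3 from 4.81 to 1.77 and 1.36 CPM. The mesenchymal markers were all 6 detected in each group, whereas the endothelial markers Pecam1, Cdh5, Kdr and Emcn had 0 to 8 counts in a library and Tek had 1 to 20. Of 6 haematopoietic markers, 2 had a row (Itgam at 0 to 3 counts, and the macrophage gene Cd68). The replicates of the Py2T-LT controls differed most (chi-square per gene 17.2, against 5.5 to 7.88 in the other groups), and Spen, a corepressor gene singled out after its values were seen, stood at 67.2 CPM in replicate 2 against 20.8 CPM in replicate 1. Notch1 and Notch2 were also higher in that library, and results that turn on it are given without it.

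Mfng, which encodes Manic Fringe (NCBI Gene 17305, chromosome 15, 78755882 to 78773516, GRCm38), was chosen for its pattern, so its levels are described without a test. It had 0 counts in both Py2T-LT control libraries. With the MEK inhibitor it stood at 1.55 and 0.602 CPM, from 24 and 11 counts, and with BMP2 and the inhibitor at 1.61 and 1.45 CPM, from 24 and 25 counts. Every treated Py2T-LT library was thus above the floor and every control below it. The mean with the inhibitor was 5.78 times the floor of 3 counts per control library, and the mean with the combination 8.22 times. These ratios carry no interval for counting error, and the inhibitor replicates differed. In MTΔECad cells it had 0 and 2 counts in the controls and 122 and 105 counts with rosiglitazone, that is 8 and 7.22 CPM. The groups ranked rosiglitazone first, then the combination and the MEK inhibitor, whose libraries overlapped, then the controls of both lines, which also overlapped. For BMP2 added to the inhibitor, the fitted log2 difference of Mfng was 0.54, from -0.02 without MEK inhibitor replicate 2 to 1.33 without MEK inhibitor replicate 1, and it is also given as a description, since the levels in both groups entered the choice. Mfng passed the filter on low counts only through its treated groups.

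Even where it was highest, Mfng was the smaller part of the Fringe messages. Lfng, the Lunatic Fringe gene (NCBI Gene 16848, chromosome 5, 140607341 to 140615545), and Rfng, the Radical Fringe gene (NCBI Gene 19719, chromosome 11, 120780745 to 120784251), were expressed in all 10 libraries. Per kilobase of exon, Mfng made up 9.2% and 9.13% of the summed Fringe level in the rosiglitazone libraries, 3.58% and 2.9% with BMP2 and the MEK inhibitor, and 4.1% and 1.92% with the inhibitor alone. Lfng held 71.9% to 89.3% of the family in every library. Taking the longest transcript as the length instead, the mean share of Mfng with rosiglitazone was 12.5%. The summed Fringe level itself was 30.4 ± 1.74 CPM per kilobase in MTΔECad controls and 29.2 ± 1.96 with rosiglitazone (SD, n = 2), so that it differed by less than the spread between replicates.

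Lfng differed mainly between the lines. In MTΔECad controls it stood at 70.5 and 65.3 CPM against 26.2 and 29.2 CPM in Py2T-LT controls, higher by 1.29 ± 0.1 on the log2 scale (edgeR adjusted p = 5.9e-10). With the MEK inhibitor it stood at 24.1 and 19.9 CPM and with BMP2 added at 32.9 and 34.4 CPM. The addition of BMP2 raised it by 0.62 ± 0.11 (edgeR adjusted p = 9.1e-05), and the call held in each alternative run. Its fall with the inhibitor alone (-0.34 ± 0.11, edgeR adjusted p = 0.036) and its rise with the combination over controls (0.28 ± 0.1, edgeR adjusted p = 0.042) were small, and each was lost in several alternatives, among them DESeq2 (adjusted p = 0.078 and 0.09). The former was also lost without MEK inhibitor replicate 2 (0.39) or control replicate 2 (adjusted p = 0.28), and the latter without combination replicate 1 (0.095), combination replicate 2 (0.17) or control replicate 1 (adjusted p = 0.25). With rosiglitazone Lfng stood at 59.9 and 56.7 CPM, a difference of -0.22 ± 0.1 that did not pass (edgeR adjusted p = 0.17). Rfng was the flattest of the genes: its group means lay between 6.92 and 8.17 CPM, and no comparison called it (edgeR adjusted p = 0.47 to 1 in the 4 treatment comparisons). The 2 libraries of the combination, at 5.29 and 8.54 CPM, spanned all other Rfng group means.

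**Figure D1:**
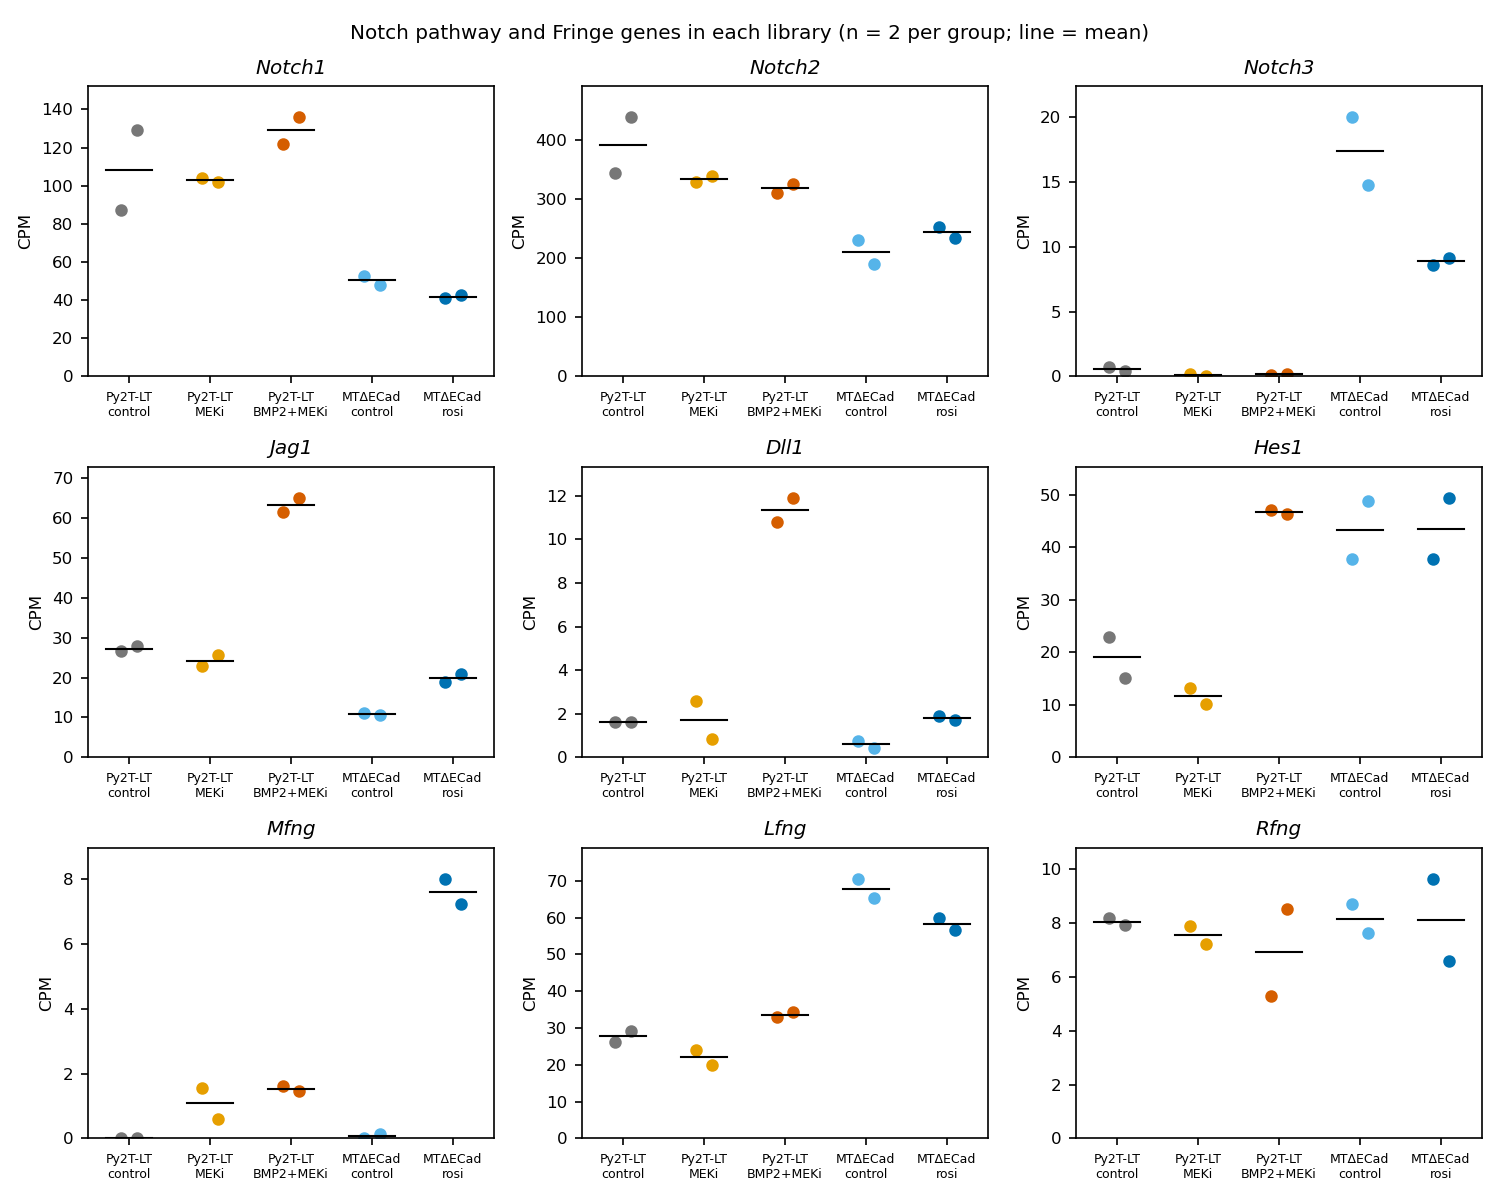
Level of each gene in CPM (linear axis from 0), with a point for each library (n = 2 a group) and a line at the group mean. Mfng is at 0 to 0.125 CPM in the 4 control libraries and at 7.22 and 8 CPM with rosiglitazone, Dll1 stands apart at 10.8 and 11.9 CPM with BMP2 and the MEK inhibitor (MEKi), and Notch3 is above 1 CPM only in MTΔECad cells.

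**Figure D2:**
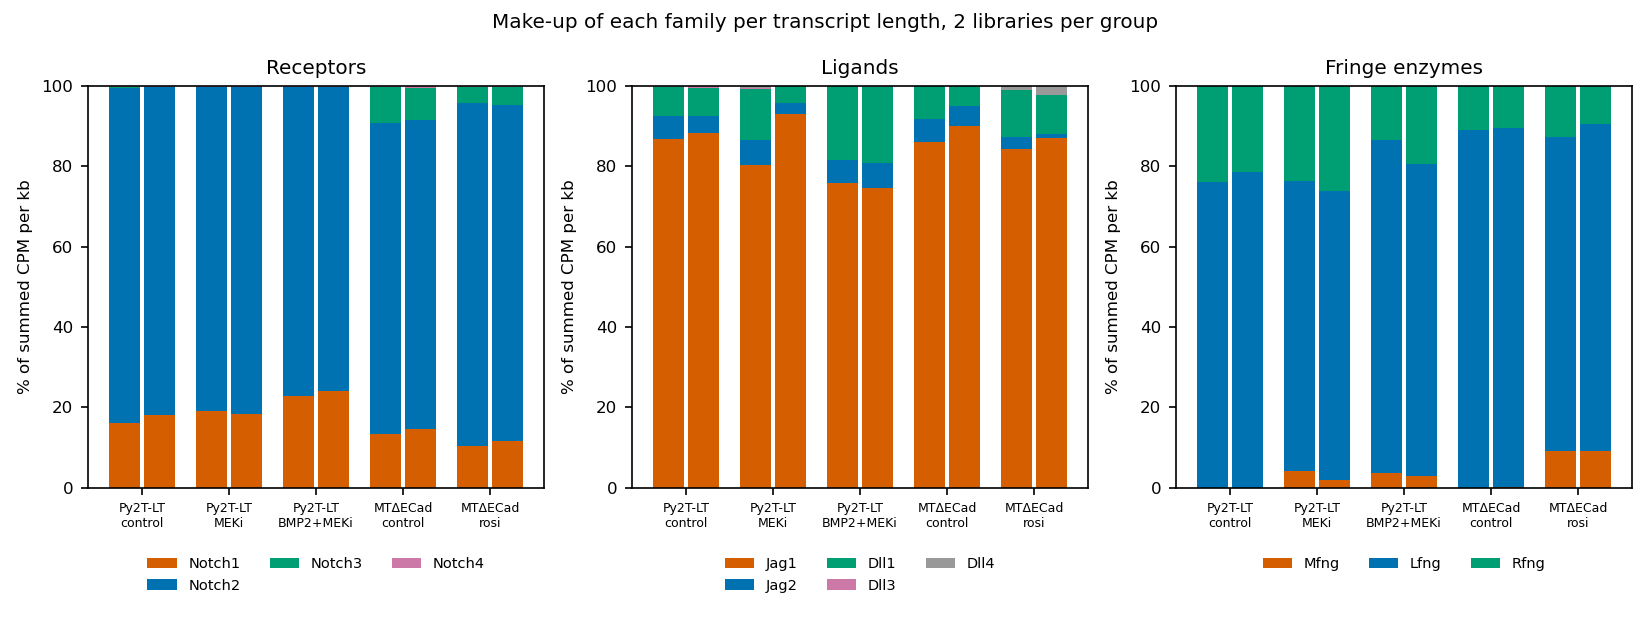
Share of each gene in the summed level of its family, in percent of CPM per kilobase of exon, with 1 bar for each of the 2 libraries of a group. Notch2 holds most of the receptor level and Jag1 most of the ligand level in every library, Dll1 reaches 18.5% and 18.8% with BMP2 and the MEK inhibitor, and Mfng reaches 9.2% and 9.13% with rosiglitazone.

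Among the ligands, Jag1 and Dll1 both rose when BMP2 was added and both rose with rosiglitazone. These may not be separate treatments, since the protocol adds rosiglitazone to BMP2-treated cells. The epithelial marker sum, mostly Krt8 and Krt18, was lower in the combination (218 and 234 CPM against 681 and 633 CPM in controls). The ligand genes and Hes1 were highest in Py2T-LT cells in that group, and the part of the marker sum in these results was not tested. Jag1 (NCBI Gene 16449, chromosome 2, 137081451 to 137116520) encodes Jagged1 and was the main ligand gene of both lines, with 74.6% to 93% of the summed ligand level per kilobase in each library. Dll1 (NCBI Gene 13388, chromosome 17, 15367354 to 15376932) encodes Delta-like 1, and 20.5% of its exon bases are shared with another annotated gene, A930024N18Rik, whose reads cannot be told apart since the use of strand is not given. The stretches from 250 bases before to 50 bases after the annotated starts of these ligand genes are shown. Jag2, the other ligand gene that rose, and Lfng, a Fringe gene that rose less, are added. These 4 were picked because they rose on addition of BMP2. Capitals mark the letters GGCGCC and GGAGCC, known as binding letters of BMP-activated SMAD proteins, and TGGGAA, the core of the RBPJ site, each searched on both strands, and no matches overlapped. The sequences are from RefSeq (GRCm38.p6), all but Lfng on the minus strand, and run 5′ to 3′.
Jag1, chr2:137116471-137116770: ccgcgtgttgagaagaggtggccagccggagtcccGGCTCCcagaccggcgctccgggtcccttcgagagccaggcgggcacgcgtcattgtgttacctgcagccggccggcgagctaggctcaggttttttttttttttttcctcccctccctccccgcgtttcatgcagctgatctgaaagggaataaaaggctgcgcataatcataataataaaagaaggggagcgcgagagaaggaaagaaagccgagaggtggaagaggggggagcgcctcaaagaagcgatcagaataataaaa
Dll1, start inside the gene, chr17:15375774-15376073: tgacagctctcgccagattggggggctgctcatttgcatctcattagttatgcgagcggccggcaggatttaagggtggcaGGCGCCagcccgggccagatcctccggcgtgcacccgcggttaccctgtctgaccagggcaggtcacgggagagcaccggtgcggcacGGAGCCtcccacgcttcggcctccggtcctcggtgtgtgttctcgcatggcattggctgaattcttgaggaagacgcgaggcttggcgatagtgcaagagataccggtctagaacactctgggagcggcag
Dll1, outer start, chr17:15376883-15377182: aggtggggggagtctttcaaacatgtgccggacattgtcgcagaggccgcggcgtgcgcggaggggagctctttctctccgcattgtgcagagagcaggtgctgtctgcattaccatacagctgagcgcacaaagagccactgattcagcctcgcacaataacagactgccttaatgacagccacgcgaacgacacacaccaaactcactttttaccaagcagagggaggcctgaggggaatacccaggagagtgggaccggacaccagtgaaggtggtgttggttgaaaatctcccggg
Jag2, start inside the gene, chr12:112929446-112929745: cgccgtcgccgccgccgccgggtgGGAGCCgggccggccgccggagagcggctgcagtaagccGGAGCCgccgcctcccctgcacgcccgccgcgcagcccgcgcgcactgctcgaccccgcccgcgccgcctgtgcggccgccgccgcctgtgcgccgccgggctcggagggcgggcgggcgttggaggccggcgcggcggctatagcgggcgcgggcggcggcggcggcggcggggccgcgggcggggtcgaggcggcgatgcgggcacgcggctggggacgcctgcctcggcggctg
Lfng, chr5:140607091-140607390: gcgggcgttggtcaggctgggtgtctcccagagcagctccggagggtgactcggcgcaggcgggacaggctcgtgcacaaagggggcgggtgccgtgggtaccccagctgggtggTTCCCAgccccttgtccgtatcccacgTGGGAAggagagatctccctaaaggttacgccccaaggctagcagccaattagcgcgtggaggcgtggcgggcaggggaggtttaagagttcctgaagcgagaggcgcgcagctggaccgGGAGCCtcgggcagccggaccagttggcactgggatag
The Jag1 window holds GGAGCC once, the inner Dll1 window holds GGCGCC and GGAGCC once each, the outer Dll1 window holds none of the 3 motifs, the Jag2 window holds GGAGCC at 2 places, and the Lfng window holds TGGGAA at 2 places and GGAGCC once. Among 17026 such windows of genes in the table, 38.9% hold GGAGCC, 18.5% hold GGCGCC and 24.2% hold TGGGAA, so these matches are common and are a description only. RefSeq windows were matched for 7 of the 10 genes. Of those not shown, Rfng holds GGCGCC at 2 places, Notch1 and Notch2 hold GGAGCC once each, and Notch3 holds none of the 3 motifs. Rfng and the receptor genes were not called on addition of BMP2.

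Jag1 had 26.6 and 27.9 CPM in Py2T-LT controls, 22.9 and 25.6 CPM with the MEK inhibitor, and at 61.4 and 65 CPM with BMP2 and the inhibitor. The combination was thus above all other libraries of the study. It rose by 1.22 ± 0.1 on the log2 scale over controls (edgeR adjusted p = 2.8e-09) and by 1.38 ± 0.1 over the inhibitor alone (edgeR adjusted p = 4.8e-10), while the inhibitor alone gave -0.17 ± 0.1 (edgeR adjusted p = 0.34). In MTΔECad cells Jag1 stood lower, at 11.1 and 10.6 CPM in controls, and rose to 18.9 and 20.8 CPM with rosiglitazone, by 0.87 ± 0.12 (edgeR adjusted p = 1.6e-05). The rosiglitazone libraries stayed below every Py2T-LT library.

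Dll1 was a low gene outside the combination. It stood at 1.6 and 1.62 CPM in Py2T-LT controls, at 2.58 and 0.821 CPM with the MEK inhibitor, where the replicates disagreed by more than the groups did, and at 10.8 and 11.9 CPM with BMP2 added. The rise of the combination over controls was 2.81 ± 0.29, or 7.02-fold (edgeR adjusted p = 1.9e-07), and over the inhibitor alone 2.78 ± 0.29 (edgeR adjusted p = 2.1e-07), the latter between 2.13 and 3.78 when MEK inhibitor replicate 2 or 1 was left out. In MTΔECad controls Dll1 stood at 0.765 and 0.438 CPM, from 11 and 7 counts, and with rosiglitazone at 1.9 and 1.72 CPM. That rise of 1.6 ± 0.48 passed (edgeR adjusted p = 0.033) but was lost when any of the 4 MTΔECad libraries was left out (adjusted p = 0.067 to 0.26). Summed over the 5 ligand genes, the level per kilobase was 5.34 ± 0.118 CPM in Py2T-LT controls, 4.8 ± 0.125 with the inhibitor, 14.4 ± 0.752 with BMP2 added, 2.12 ± 0.144 in MTΔECad controls and 3.98 ± 0.186 with rosiglitazone (SD, n = 2).

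Among the receptor genes Notch2 was the main one and Notch3 differed most between the lines. Notch2 (NCBI Gene 18129, chromosome 3, 98013538 to 98150367) was the most abundant receptor gene per kilobase, with 75.7% to 85.3% of the family in each library. It stood at 343 and 438 CPM in Py2T-LT controls, at 329 and 339 CPM with the MEK inhibitor and at 310 and 325 CPM with BMP2 and the inhibitor. The fall with the combination was -0.3 ± 0.11 (edgeR adjusted p = 0.035), and it was -0.11 without control replicate 2 (adjusted p = 0.44) and missed the threshold without combination replicate 1 (0.17) or 2 (0.097) and with the replicate number as a block (adjusted p = 0.063). The inhibitor alone gave -0.22 ± 0.11 (edgeR adjusted p = 0.18), from -0.04 without control replicate 2 to -0.39 without control replicate 1. With rosiglitazone Notch2 stood at 253 and 234 CPM against 231 and 190 CPM in MTΔECad controls, a difference of 0.21 ± 0.11 that did not pass (edgeR adjusted p = 0.26). Notch1 (NCBI Gene 18128, chromosome 2, 26457902 to 26503822) stood at 87.1 and 129 CPM in Py2T-LT controls, at 104 and 102 CPM with the inhibitor and at 122 and 136 CPM with the combination, so that the control libraries spanned the inhibitor group. Neither treatment passed (edgeR adjusted p = 0.81 and 0.2), and both effects turned on the control library kept. Without control replicate 2 the inhibitor gave 0.23 and the combination 0.57, and without control replicate 1 they gave -0.33 and 0.0. In MTΔECad cells Notch1 stood at 52.7 and 48.1 CPM in controls and at 40.9 and 42.6 CPM with rosiglitazone, a difference of -0.27 ± 0.16 (edgeR adjusted p = 0.36).

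Notch3 (NCBI Gene 18131, chromosome 17, 32120820 to 32166896), a receptor gene best known from vascular smooth muscle, marked the MTΔECad line and was lower there after rosiglitazone. It stood at 20 and 14.8 CPM in MTΔECad controls and at 8.59 and 9.14 CPM with rosiglitazone, a log2 fold change of -0.97 ± 0.18 (edgeR adjusted p = 5.1e-04) that held in each alternative run. In Py2T-LT controls it had 12 and 7 counts, or 0.739 and 0.437 CPM, and 3, 1, 2 and 3 counts in the treated libraries, all at or below the floor. The control level was 4.97 times that with the inhibitor and 3.79 times that with the combination, with exact 95% counting intervals of 1.65 to 20.1 and 1.37 to 13 that cover counting error only. Both falls passed (edgeR adjusted p = 0.029 and 0.03) and both were lost without control replicate 1 (adjusted p = 0.19 and 0.21). The first was also lost without MEK inhibitor replicate 2 (adjusted p = 0.26), and the second without combination replicate 1 (0.13) or 2 (adjusted p = 0.093). Between the control groups Notch3 was 29.1-fold higher in MTΔECad cells, by 4.86 ± 0.27 (edgeR adjusted p = 1.9e-12). That difference is a description, since Notch3 passed the filter on low counts only through the MTΔECad libraries. In these bulk samples fewer cells with a message and less message per cell cannot be told apart.

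Hes1 (NCBI Gene 15205, chromosome 16, 30065357 to 30067796), a transcriptional repressor gene switched on by Notch and by other signals, rose with BMP2 in Py2T-LT cells. It stood at 22.9 and 15.2 CPM in controls, at 13.3 and 10.2 CPM with the MEK inhibitor and at 47.1 and 46.3 CPM with BMP2 added, and the 3 groups did not overlap. It rose by 1.29 ± 0.22 with the combination over controls (edgeR adjusted p = 0.0015) and by 2 ± 0.23, or 3.99-fold, over the inhibitor alone (edgeR adjusted p = 1.3e-04). The lower level with the inhibitor alone, -0.7 ± 0.24, missed the threshold (edgeR adjusted p = 0.094), whereas DESeq2 (0.0046), the fit without a count filter (1.1e-06) and the fit without control replicate 2 (8.6e-04) called it. In MTΔECad cells Hes1 stood at 37.8 and 48.8 CPM in controls and at 37.8 and 49.4 CPM with rosiglitazone, with a difference of 0.01 ± 0.21 (edgeR adjusted p = 1). The values of both Py2T-LT combination libraries lay within the range of these 4 libraries.

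**Figure D3:**
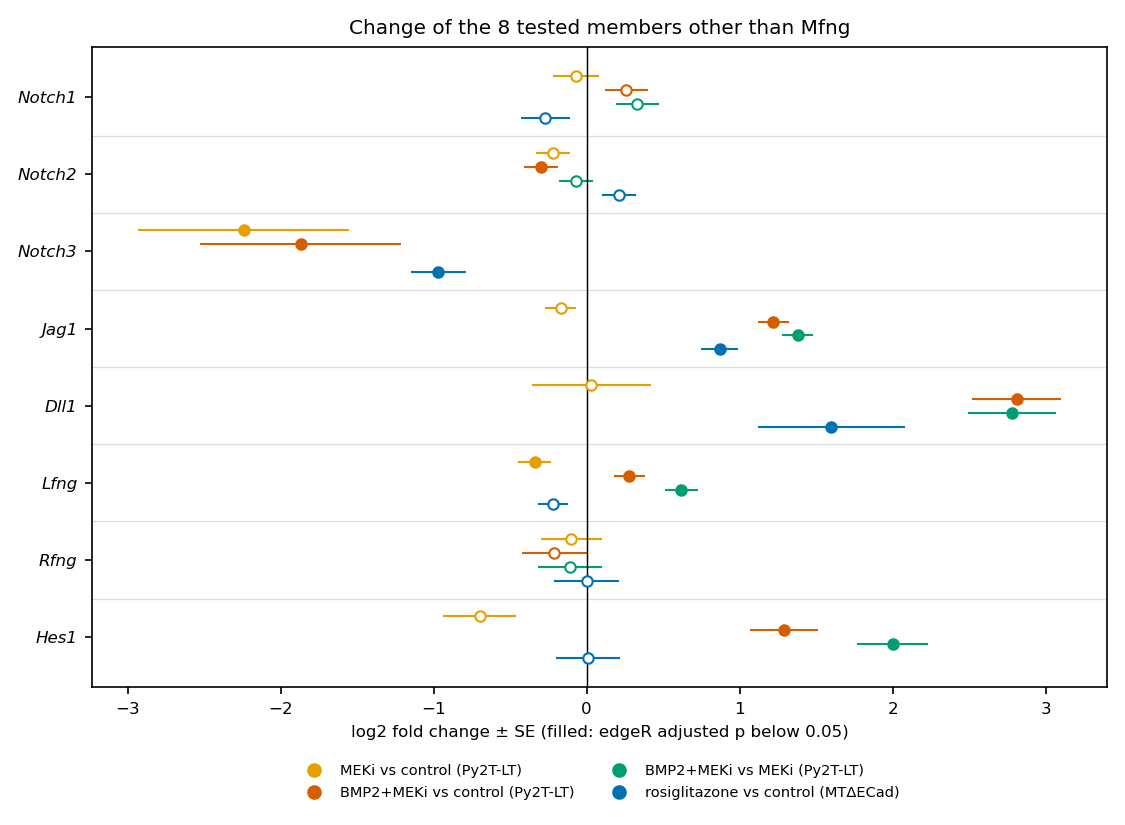
Log2 fold change with its SE for the 8 tested genes other than Mfng in 4 comparisons, filled where the edgeR adjusted p was below 0.05. Jag1, Dll1 and Hes1 lie at 1.38, 2.78 and 2 for BMP2 added to the MEK inhibitor (MEKi), Notch3 lies at -0.97 for rosiglitazone, and Rfng lies near 0 throughout. Notch3 has no point for BMP2 added to the inhibitor, since both groups were at or below the floor.

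Counted by comparison, 8 genes were tested besides Mfng. With the MEK inhibitor 2 fell (Notch3 and Lfng) and none rose, where edgeR called 16.5% of all 13149 genes, 8.98% higher and 7.52% lower. No gene of the 8 was higher at an unadjusted edgeR p under 0.05 or with DESeq2. With BMP2 and the inhibitor 4 rose (Jag1, Dll1, Lfng and Hes1) and 2 fell (Notch2 and Notch3), where 38.5% of all genes were called, 19.1% higher and 19.4% lower. For BMP2 added to the inhibitor, 4 of the 8 rose (Jag1, Dll1, Lfng and Hes1), where 37.3% of all genes were called, 17.9% higher and 19.4% lower, and these 4 calls held in each alternative run. With rosiglitazone 2 rose (Jag1 and Dll1) and 1 fell (Notch3), where 13.2% of all genes were called, 7.95% higher and 5.26% lower. The median log2 fold change was -0.19, 0.27, 0.62 and 0 in these 4 comparisons, beside 0.01, 0, 0.01 and -0.02 over all genes, over 8 genes except on addition of BMP2, where Notch3 has no fitted value and 7 remained. The 2 comparisons with Py2T-LT controls share those libraries, and the 2 with the inhibitor group share that group.

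Between the untreated lines 7 of the 8 genes differed, where 61% of all genes did, 29.3% higher and 31.7% lower. Notch3, Lfng and Hes1 were higher in MTΔECad cells, Hes1 by 1.18 ± 0.22 (edgeR adjusted p = 0.0014). Notch3 is counted here although it passed the filter on low counts only through MTΔECad libraries. Notch1, Notch2, Jag1 and Dll1 were lower, by log2 fold changes of -1.1 ± 0.15, -0.89 ± 0.11, -1.33 ± 0.11 and -1.43 ± 0.49 (edgeR adjusted p = 8e-05, 1.9e-06, 2.5e-09 and 0.016), and Dll1 lost its call without MTΔECad control replicate 2 (adjusted p = 0.15). Across all genes 3857 were higher and 4163 lower in MTΔECad cells, which became 3055 and 5226 with library totals alone, a scaling that moved the median of all genes from -0.03 to -0.16 and left these 7 calls in place.

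The effect of rosiglitazone in MTΔECad cells was also set against that of the combination in Py2T-LT cells. This tested the difference between effects of different treatments in different lines, although the combination may itself have included rosiglitazone. Hes1 differed by -1.28 ± 0.3 (edgeR adjusted p = 0.014), Lfng by -0.5 ± 0.14 (edgeR adjusted p = 0.014) and Notch2 by 0.51 ± 0.15 (edgeR adjusted p = 0.02), where 24.8% of all genes differed, 13.3% higher and 11.6% lower. For Hes1 the effects behind this difference were 0.01 with rosiglitazone and 1.29 with the combination, for Lfng -0.22 and 0.28, and for Notch2 0.21 and -0.3. Hes1 lost its call without either combination replicate or rosiglitazone replicate 1 (adjusted p = 0.05 to 0.063). Lfng lost it without replicate 1 of either control group (adjusted p = 0.063 and 0.067). Notch2 lost it without either combination replicate, replicate 2 of either control group or rosiglitazone replicate 1 (adjusted p = 0.053 to 0.093). Notch1 did not pass (edgeR adjusted p = 0.11), but gave -0.84 without Py2T-LT control replicate 2 (adjusted p = 4.6e-05). For Jag1 and Dll1 the difference did not pass (-0.34 ± 0.16 and -1.21 ± 0.63, edgeR adjusted p = 0.12 and 0.18).

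Of the 54 further genes of the pathway that were listed by role, 52 had a row and 47 were tested, and the share that passed lay close to or below that of all genes in each of the 4 treatment comparisons. With BMP2 added to the inhibitor 14 rose and 3 fell, with the combination over controls 12 rose and 6 fell, with the inhibitor alone 4 rose and 3 fell, and with rosiglitazone 1 rose and 3 fell. These are 36.2%, 38.3%, 14.9% and 8.51% of the 47, beside 37.3%, 38.5%, 16.5% and 13.2% of all genes, so the shares called show nothing particular to the pathway. By direction, all genes gave 17.9% higher and 19.4% lower on addition of BMP2, and 19.1% and 19.4% with the combination. They gave 8.98% and 7.52% with the inhibitor alone, and 7.95% and 5.26% with rosiglitazone. More of the 47 rose than fell in both comparisons with BMP2 and fewer with rosiglitazone, and this lean was not tested. Medians of the 47 were 0.17, 0.08, -0.09 and -0.12 on the log2 scale.

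Among the proteases, Adam10, the gene of the enzyme that makes the first cut in a ligand-bound receptor, stood at 195 and 227 CPM in Py2T-LT controls, at 201 and 198 CPM with the inhibitor and at 572 and 475 CPM with BMP2 added. It rose by 1.39 ± 0.09 on addition of BMP2 (edgeR adjusted p = 7.4e-11), while rosiglitazone gave -0.18 ± 0.09 in MTΔECad cells (edgeR adjusted p = 0.22). Aph1b and Aph1c, which encode a subunit of the γ-secretase that makes the next cut, rose with the combination by 1.48 ± 0.16 and 1.42 ± 0.28 (edgeR adjusted p = 1.6e-07 and 2.8e-04), and since they are near-identical neighbours, the division of reads between them is uncertain. Of the 8 tested protease genes 5 rose and 1 fell with the combination over controls, where 38.5% of all genes were called. On addition of BMP2 3 rose (37.3% of all genes called), with the inhibitor alone 2 rose and 1 fell (16.5%), and with rosiglitazone 1 rose (13.2%).

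Among the other ligands, Jag2 rose with Jag1 and Dll1 on addition of BMP2 but not with rosiglitazone. It stood at 2.03 and 1.62 CPM in Py2T-LT controls, at 2.13 and 0.931 CPM with the inhibitor and at 5.42 and 6.51 CPM with BMP2 added, a rise of 2 ± 0.32 (edgeR adjusted p = 3.2e-05). In MTΔECad cells it stood at 0.904 and 0.688 CPM in controls and at 0.852 and 0.275 CPM with rosiglitazone, a difference of -0.47 ± 0.56 (edgeR adjusted p = 0.7). Dlk2, a membrane protein gene related to the Delta-like ligands, rose already with the inhibitor, from 2.96 and 2.12 to 8.72 and 6.79 CPM, by 1.6 ± 0.24 (edgeR adjusted p = 6.9e-05), and stood at 11.1 and 14.9 CPM in the combination. The step on addition of BMP2, 0.76 ± 0.2, passed (edgeR adjusted p = 0.0043) but not without combination replicate 2 (adjusted p = 0.12) or MEK inhibitor replicate 2 (adjusted p = 0.076). Neurl1a, a ubiquitin ligase gene that acts on ligands, rose by 1.05 ± 0.14 on addition of BMP2 (edgeR adjusted p = 4.1e-06), from 16.1 and 15.2 to 28.2 and 36.3 CPM. It had 0 counts in both MTΔECad control libraries and 1 count in each rosiglitazone library. The mean of the Py2T-LT controls, at 11.8 and 14 CPM, was 64.9 times the floor of 3 counts per MTΔECad control library.

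The other target genes did not all go the way of Hes1. Hey1, a repressor gene and a target of both Notch and BMP signals, stood at 2.28 and 2.5 CPM in Py2T-LT controls, at 2.2 and 2.63 CPM with the inhibitor and at 44.5 and 46.3 CPM with BMP2 added, and it had 5 to 8 counts in every MTΔECad library. It rose by 4.22 ± 0.16 on addition of BMP2 (edgeR adjusted p = 2.9e-14). Nrarp, a target and feedback inhibitor gene of Notch, went down: it stood at 2.4 and 3.37 CPM in controls, at 2.26 and 1.75 CPM with the inhibitor and at 0.535 and 0.581 CPM with BMP2 added. On addition of BMP2 its log2 fold change was -1.82 ± 0.37 (edgeR adjusted p = 4.7e-04), and 79.4% of the exon bases of Nrarp are shared with the annotated gene Gm38287. Hey2 rose by 1.49 ± 0.58 on addition of BMP2 (edgeR adjusted p = 0.047) from 8 and 3 to 15 and 15 counts, a call that most alternatives did not keep. Hey2 passed the filter on low counts only through the combination and was named for this rise, so the call only describes it. Dtx4, a Deltex ubiquitin ligase gene that modulates Notch, fell stepwise, from 190 and 213 CPM in controls to 107 and 131 CPM with the inhibitor and to 40.1 and 40.8 CPM with BMP2 added, with log2 fold changes of -0.76 ± 0.09 for the inhibitor and -1.56 ± 0.1 for the addition (edgeR adjusted p = 2.8e-06 and 3.5e-11). Hey1, Nrarp, Dtx4, Adam10, Aph1b, Aph1c, Jag2 and Dlk2 were named for large changes in Py2T-LT cells. A test that reuses those libraries therefore only describes them. Each differed between the effect of the combination and that of rosiglitazone (edgeR adjusted p from 1.1e-10 for Dtx4 to 0.017 for Jag2), where 24.8% of all genes differed. For Jag2 that call was lost without MTΔECad control replicate 1 (adjusted p = 0.096) and without rosiglitazone replicate 2 (adjusted p = 0.076).

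The nuclear complex and its corepressors made up 16 of the tested genes. Rbpj, the gene of the DNA-binding partner of the cut receptor, had a log2 fold change of -0.48 ± 0.09 on addition of BMP2 (edgeR adjusted p = 2.3e-04) and is named here after its value was seen. In this list 2 rose and 1 fell on addition of BMP2 (18.8%, beside 37.3% of all genes), and 1 rose and 2 fell with the combination over controls (18.8%, beside 38.5%). With the inhibitor alone 1 rose and 1 fell (12.5%, beside 16.5%), and with rosiglitazone 1 fell (6.25%, beside 13.2%).

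**Figure D4:**
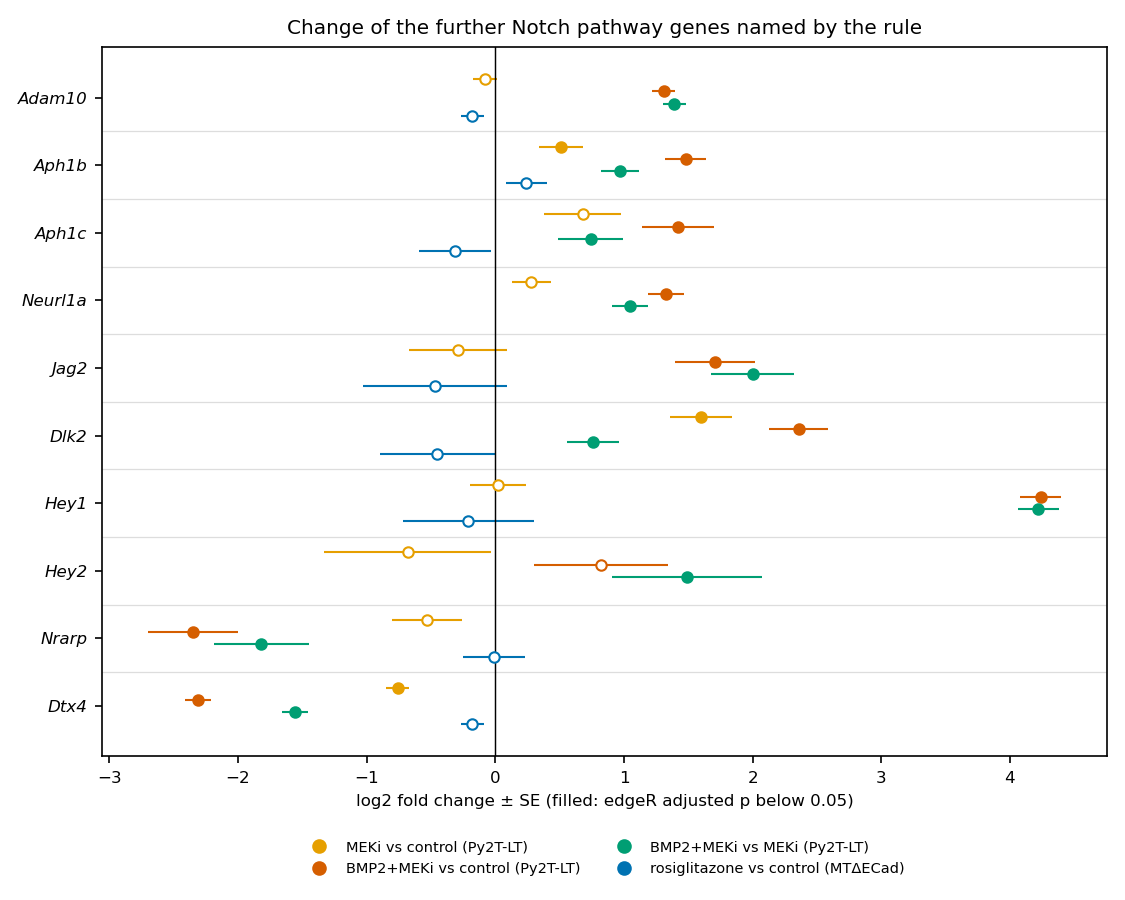
Log2 fold change with its SE for the 10 further pathway genes that passed with a change above 1 or below -1 on the log2 scale, filled where the edgeR adjusted p was below 0.05. Hey1, Jag2, Adam10 and Neurl1a lie at 4.22, 2, 1.39 and 1.05 for BMP2 added to the MEK inhibitor (MEKi) and Dtx4 and Nrarp at -1.56 and -1.82. Neurl1a and Hey2 have no point for rosiglitazone because both MTΔECad groups were at or below the floor.

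The genes whose levels followed Mfng most closely over the 10 libraries, by Pearson r of log2(CPM + 0.25) among 2404 genes whose group means spanned at least 2 on the log2 scale, were Plin1 (0.981), Tppp (0.979), Reep6 (0.979), Agpat2 (0.976) and Adig (0.974). Plin1, which coats the lipid droplets of fat cells, stood at 0.28 CPM in Py2T-LT controls, 16.3 with the inhibitor, 32.8 with the combination, 0.365 in MTΔECad controls and 255 with rosiglitazone. Agpat2, an enzyme gene of triglyceride synthesis, went from 49.7 to 290 CPM with rosiglitazone. These r values describe 10 libraries that share lines and treatments and carry no test. Mfng was itself chosen for being near zero in controls and higher under each treatment. Genes raised by every treatment therefore rank high through that choice. Of the 7 listed adipocyte markers, Adipoq, Cidec, Fabp4 and Cd36 also had r values of 0.923 to 0.958 with Mfng, and Plin1 is named above. Pparg did not follow it as closely (r = 0.467): it stood at 68.7 and 67.3 CPM in MTΔECad controls, where Mfng had 0 and 2 counts, and at 63.2 and 61.8 CPM with rosiglitazone. Lpl made up most of the summed level of the list in the controls of both lines and did not span enough to be a candidate. That sum was 577 and 564 CPM in Py2T-LT controls, 924 and 906 with the inhibitor, 1310.9 and 1127.3 with the combination, 1794.4 and 1655.5 in MTΔECad controls and 3966.4 and 3658 with rosiglitazone. It was thus higher in MTΔECad controls than in the combination, the reverse of Mfng, and higher in treated than in control libraries within each line. Only Lpl (1638.9 against 774 CPM) and Pparg (68 against 25 CPM) were higher in MTΔECad controls than in the combination. Adipoq, Plin1, Cidec, Fabp4 and Cd36 were lower there, as Mfng was. None of the 7 was at 0 in both libraries of a group, and their part in the Mfng pattern was not tested.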

How the data were processed

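RNA sequencing counts of 10 mouse cell line libraries were analysed, 2 in each of 5 groups, grouped by their labels. The authors deposited whole-number read counts per NCBI gene ID, without normalisation as far as the values show. Reads were aligned with STAR to mm10, per the submitters' processing notes. The counting tool, annotation and use of strand are, for these counts, not given in the sources used here. The labels' protocols speak of RNA from 2 independent experiments and of a stranded total RNA kit, but also of poly-A RNA.

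RefSeq GRCm38.p6 gave symbols and coordinates for 18057 of the 18103 identifiers. The other 46, with 0.799% of the counts, stayed in the fit unnamed. Counts were fitted in edgeR 4.0.16 (R 4.3.3): filterByExpr kept 13149 genes, and after TMM scaling a robust quasi-likelihood model with 1 mean per group was fitted to all libraries (5 residual degrees of freedom), with Benjamini-Hochberg adjustment over all genes and a threshold of 0.05. The SE is the log2 fold change divided by the square root of F. Lengths are unions of GENCODE M21 exons. The code was tested on simulated data. No fitted fold change is given where all compared libraries had at most 3 counts or where a group was at 0. Alternatives were RLE and total scaling, no filter, DESeq2 1.42.0, only the compared groups, a replicate block, and leaving out each library. With 2 experiments a group, the p-values reflect only the spread between these, pooled over the 5 groups and with information shared across genes. The members and gene lists were chosen with earlier results of these data known. Named genes are the 10 members, the listed pathway genes called with a log2 change above 1 or below -1 in any of the 4 treatment comparisons, and the 5 genes most correlated with Mfng.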

Additional observations from a re-analysis of the deposited data

How the results depend on the processing

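Of 48 fitted results on the members (for Mfng, the addition of BMP2 alone), 23 kept direction and call under each alternative, 10 lost a call, 7 gained a call and 9 changed sign in at least 1. The cause was not tested, and low counts limit Notch3 in Py2T-LT cells, Dll1, Mfng and Hey2. The replicate numbers did not pair the samples (correlations of replicate differences between groups -0.11 to 0.1). With the replicate number as a block, 5 members were called with the combination against controls in place of 6 (Notch2 was lost, adjusted p = 0.063), Hey2 on addition of BMP2 was lost (adjusted p = 0.054), and the genes called, higher and lower, were 1222 and 1023 with the MEK inhibitor, 2577 and 2571 with the combination, 2424 and 2600 on addition of BMP2, 1073 and 760 with rosiglitazone, 3904 and 4187 between lines and 1816 and 1580 for the difference. It changed no other call of a member or named gene. With the MEK inhibitor, 2 members were called, which became 1 with library totals, 4 without a filter, 0 with only the compared groups (edgeR; unadjusted p under 0.05 for 4 in the full fit) and 0 to 3 with a library left out. For that comparison 7 further pathway genes became 12 without a filter and 4 to 12 with a library left out, and all genes called ranged from 1448 to 2170. With the combination against controls 3 to 6 members were called with a library left out. With rosiglitazone 1737 genes became 1112 to 1338, and 4 further genes became 8 without a filter, 2 with DESeq2 and 2 to 4 with a library left out. For the difference 3 members became 1 to 3. Changes near zero turned sign: with rosiglitazone Rfng was 0.0 with RLE factors, 0.01 with totals and 0.02 with only the compared groups, Nrarp 0.0 with totals and 0.01 with only the compared groups, and between lines Rfng was -0.11 with totals. Log2 fold changes with a library left out that changed sign ranged as follows. With the MEK inhibitor Notch1 ran from -0.33 to 0.23, Dll1 from -0.97 to 0.68, Adam10 from -0.18 to 0.03, Hey1 from -0.12 to 0.14, Hey2 from -1.64 to 0.08 and Jag2 from -0.97 to 0.22. With the combination Rfng ran from -0.61 to 0.07, and on addition of BMP2 Mfng from -0.02 to 1.33 and Rfng from -0.51 to 0.17. With rosiglitazone Rfng ran from -0.31 to 0.24, Hes1 from -0.2 to 0.21, Hey1 from -0.58 to 0.23, Jag2 from -1.5 to 0.11 and Nrarp from -0.13 to 0.13. Between lines Rfng ran from -0.08 to 0.11 and for the difference from -0.1 to 0.6.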
